A study of Homo sapiens with 6 samples.

Results

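Glycolysis and the hypoxia response were examined as a set of 36 genes in MDA-MB-231, a breast cancer line without oestrogen, progesterone and HER2 receptors. The set was chosen by gene name among protein-coding genes and is a small part of the 58735 annotated genes in the tables. It holds 20 glucose transporters and glycolytic enzymes, 13 hypoxia targets that act outside glycolysis, and 3 subunits of the hypoxia-inducible factor HIF. All 36 genes passed the minimum of a mean of 0.5 FPKM over the libraries and were tested. FPKM are counts divided by gene length and library total, and abundance is compared between genes on that scale.

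The series holds 6 poly(A) RNA libraries in 2 groups. The 3 CB1 libraries came from cells overexpressing cannabinoid receptor type 1 (gene CNR1), a receptor that signals through G proteins, and the 3 Vector libraries from cells carrying the empty vector. The study's methods describe stable transduction with lentivirus carrying pCDH plasmids, puromycin selection and screening of pooled clones by western blot. In the labels the treatment entry reads DMSO for Vector and CB1 for the other group, and they do not say whether the CB1 cells also received the vehicle. Each group may be a single line, so that an effect of CB1 and a difference between lines cannot be told apart. Nothing states that the libraries of a group came from separate cultures. The p-values therefore measure the spread between these libraries, which may be technical. In RNA from a whole culture, a lower level per cell and fewer expressing cells cannot be told apart.

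The comparison asked which transcripts differed when CB1 was overexpressed. Total counts were 17804240 to 18833661 in the CB1 libraries and 16957881 to 17447521 in the Vector libraries. CNR1 had 6465, 7703 and 7353 counts in the CB1 libraries, against 7, 6 and 4 in the Vector libraries, as the labels state. Of 8 markers fixed for MDA-MB-231 cells, all were detected, with AXL, FOSL1, CD44 and VIM higher, EGFR and PLAU lower, and MSN and CAV1 not passing the test. Their summed level was 6519 to 6597 CPM (counts per 1000000 of the scaled library total) in CB1 cells and 5496 to 5579 CPM in Vector cells. Of 8 markers of other breast lineages, 5 were tested, with KRT19 and GATA3 higher and EPCAM lower, and the list summed to 242.2 to 289.7 CPM in CB1 cells and 207.4 to 211.5 CPM in Vector cells, mostly KRT19 and ERBB2. On that list the oestrogen and progesterone receptor genes ESR1 and PGR together stayed at or below 0.961 CPM in CB1 cells and 1.12 CPM in Vector cells. All 6 tested markers of the embryonic kidney line HEK293T, of 8 on that list, were higher in CB1 cells. The summed level of the list was 115.0 to 140.4 CPM in CB1 cells and 51.8 to 53.6 CPM in Vector cells, and no marker of the list was at 0 in every library. The part of this change in the results below was not tested.

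Glycolysis converts glucose to pyruvate in the cytosol. Glucose transporters bring the sugar in, the upper enzymes phosphorylate and split it, and the lower enzymes, from GAPDH to pyruvate kinase, recover ATP. Under low oxygen, the alpha subunits HIF1A and EPAS1 escape hydroxylation by the EGLN enzymes and destruction through VHL, pair with ARNT, and bind DNA at hypoxia response elements with the core ACGTG or GCGTG. Most glycolytic genes are HIF targets, as are angiogenic factors, mitophagy receptors, collagen hydroxylases and the EGLN genes themselves. HIF is regulated mainly through its protein, which was not measured here.

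Transcripts of glycolysis rose along most of the pathway in CB1 cells. Of the 20 glycolysis genes, 14 were higher at an adjusted p under 0.05 in edgeR's quasi-likelihood test (Benjamini-Hochberg over all genes), 1 was lower and 5 did not pass, whereas over all 15289 genes tested 24.4% were higher and 25.4% lower (49.8% in either direction). The median change of the 20 genes was 0.52 on the log2 scale, or 1.44-fold, beside -0.0020 over all genes tested. The hypoxia targets outside glycolysis were mixed, with 5 of 13 higher, 1 lower and 7 not passing, and a median log2 change of 0.17. The transcript of HIF1A itself was 1.97-fold lower in CB1 cells. The CPM of the groups did not overlap for 16 of the 20 glycolysis genes and 9 of the 13 hypoxia targets, beside 58.9% of all genes tested.

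The size of the changes was modest. Changes of more than 1.5-fold past the threshold were found for 11 of the 36 genes in the upward direction, 9 of them in glycolysis (10.7% of all genes tested), and for 1 gene in the downward direction (10.1% of all genes tested). The glycolysis genes took 1.72%, 1.69% and 1.57% of all counts in the CB1 libraries, against 1.15%, 1.18% and 1.18% in the Vector libraries. GAPDH, ENO1 and PKM alone accounted for 1.15%, 1.13% and 1.03% in the CB1 libraries and 0.736%, 0.758% and 0.762% in the Vector libraries. The hypoxia targets had 0.121% to 0.124% of the unscaled counts in either group. Their summed CPM was 1251 to 1275 in the CB1 libraries and 1179 to 1214 in the Vector libraries.

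**Figure D1:**
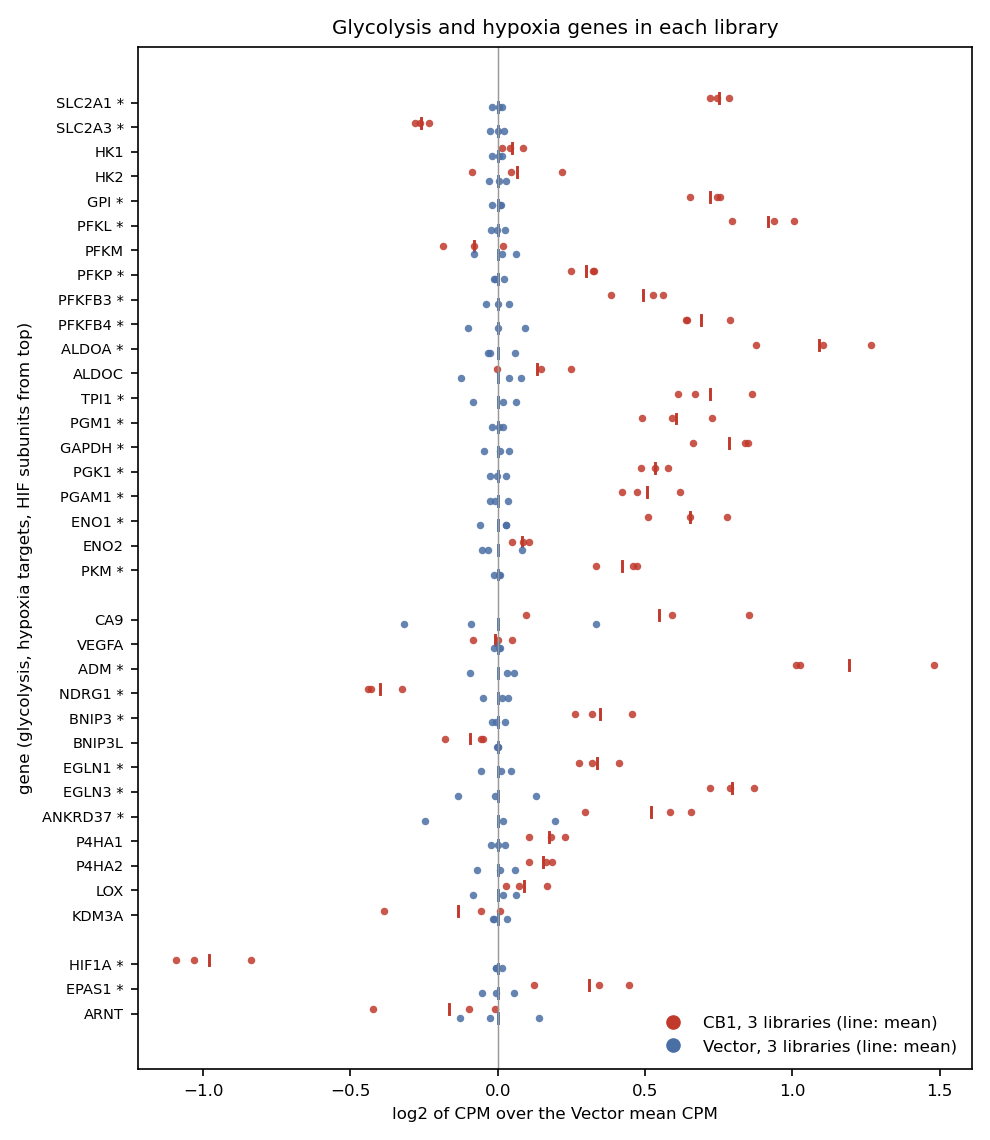
Each row is a gene, from top to bottom the glycolysis genes, the hypoxia targets and the HIF subunits. The horizontal axis gives log2 of the CPM over the Vector mean CPM, points are libraries (CB1 red and above, Vector blue and below), short lines are group means, and an asterisk marks an edgeR adjusted p under 0.05. The red points lie to the right of the blue ones for the 14 glycolysis genes that rose, near them for VEGFA and the hexokinases, and far to the left for HIF1A.

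The promoters of these genes were examined for the core of the hypoxia response elements. RefSeq promoter windows on GRCh38.p14, taken as the 250 bases before each listed start, were searched on both strands for ACGTG and GCGTG, and CACGTG counts on both strands because it reads the same on each. In the RefSeq table, windows were found for 19 of 20 glycolysis genes and 10 of 13 hypoxia targets, and none for BNIP3L, NDRG1, SLC2A3 and VEGFA. ACGTG stood in at least 1 window of 12 of the 19 glycolysis genes (63.2%) and 6 of the 10 hypoxia targets (60%), beside 29.4% of the 9362 tested protein-coding genes with a window. The count by gene favours genes with more windows, and the 19 glycolysis genes had 41 windows, beside 13673 windows for the 9362 tested genes. Counted by window, these were 15 of 41 glycolysis windows (36.6%) and 8 of 13 windows of hypoxia targets (61.5%), against 22.6% for the tested genes and 18.5% for all 35116 windows. The median GC content was 68.4% for glycolysis windows, 66.4% for hypoxia target windows and 64.8% for windows of the tested genes. GCGTG was less particular, with 29.3% of glycolysis windows and 46.2% of hypoxia target windows, beside 44.1% for the tested genes. A match is a description of these letters and not a binding site, and sequence outside the windows was not searched.

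Presence of a core was set beside the change without a test. Among the glycolysis genes, 8 of 12 with ACGTG rose, with a median log2 change of 0.51, and 6 of 7 without it rose, with a median of 0.65. With either core counted, 11 of 16 rose, with a median of 0.57, and 3 of 3 with neither (SLC2A1, PGAM1 and PKM), with a median of 0.51. Among the hypoxia targets, 3 of 6 with ACGTG and 2 of 4 without it rose. Over all tested protein-coding genes with a window, 28.5% of those with ACGTG and 27.1% of those without it were higher, with medians of -0.0219 and -0.0403. The windows below are printed as examples of 3 pairings of core and change, with ACGTG in capitals, read on either strand. PGK1 (chrX:78103998-78104247, plus strand), GAPDH (chr12:6535014-6535263, plus strand) and ANKRD37 (chr4:185396591-185396840, plus strand) have cores and rose. SLC2A1 (chr1:42958869-42959118, minus strand) rose with neither core in its window. CA9 (chr9:35673678-35673927, plus strand) and ENO2 (chr12:6914330-6914579, plus strand) have a core and did not pass the test.
PGK1: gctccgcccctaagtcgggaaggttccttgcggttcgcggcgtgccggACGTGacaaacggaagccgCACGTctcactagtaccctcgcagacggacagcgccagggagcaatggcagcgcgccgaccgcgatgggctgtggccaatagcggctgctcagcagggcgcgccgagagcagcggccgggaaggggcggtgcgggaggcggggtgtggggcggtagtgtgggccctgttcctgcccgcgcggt
GAPDH: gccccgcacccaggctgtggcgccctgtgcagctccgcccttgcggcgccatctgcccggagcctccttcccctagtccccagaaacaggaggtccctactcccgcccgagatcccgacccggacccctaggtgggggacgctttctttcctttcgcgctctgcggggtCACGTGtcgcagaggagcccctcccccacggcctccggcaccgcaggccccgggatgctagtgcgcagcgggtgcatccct
ANKRD37: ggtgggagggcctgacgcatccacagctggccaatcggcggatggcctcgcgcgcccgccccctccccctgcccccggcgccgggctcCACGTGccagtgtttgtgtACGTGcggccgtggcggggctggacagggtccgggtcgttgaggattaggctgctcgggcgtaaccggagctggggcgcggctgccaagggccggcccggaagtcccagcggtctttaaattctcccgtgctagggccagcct
SLC2A1: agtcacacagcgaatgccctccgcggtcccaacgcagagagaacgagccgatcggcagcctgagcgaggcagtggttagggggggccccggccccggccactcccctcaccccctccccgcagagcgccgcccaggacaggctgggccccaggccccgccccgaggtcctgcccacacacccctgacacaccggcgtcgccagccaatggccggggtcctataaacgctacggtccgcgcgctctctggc
CA9: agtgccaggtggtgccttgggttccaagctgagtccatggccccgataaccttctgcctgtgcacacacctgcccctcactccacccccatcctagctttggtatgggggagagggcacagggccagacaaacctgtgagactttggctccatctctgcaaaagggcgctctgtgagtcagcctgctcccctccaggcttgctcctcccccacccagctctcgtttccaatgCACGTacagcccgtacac
ENO2: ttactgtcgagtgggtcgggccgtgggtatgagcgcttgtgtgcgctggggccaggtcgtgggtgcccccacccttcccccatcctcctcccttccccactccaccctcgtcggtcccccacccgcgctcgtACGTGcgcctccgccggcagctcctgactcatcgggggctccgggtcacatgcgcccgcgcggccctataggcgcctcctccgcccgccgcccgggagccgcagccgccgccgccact

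The glucose transporters moved in opposite directions. SLC2A1 (GLUT1, the widespread glucose transporter, chromosome 1, 42925375 to 42959176, minus strand) had 299, 313 and 304 CPM in CB1 cells, against 182, 179 and 184 CPM in Vector cells. The lowest CB1 library stood 1.63 times above the highest Vector library, and the rise was 1.68-fold (log2 0.75 ± 0.06 SE, edgeR adjusted p = 3.09e-06). SLC2A3 (GLUT3, a transporter of high affinity best known from neurons, chromosome 12, 7919230 to 7936275, minus strand) had 43.6, 44.1 and 45.0 CPM in CB1 cells and 52.0, 53.0 and 53.7 CPM in Vector cells. It was the only glycolysis gene that fell, by 0.26 ± 0.07 (SE) on the log2 scale, or 1.20-fold (edgeR adjusted p = 0.0102), and without Vector replicate 3 it did not pass (adjusted p = 0.0527). The SLC2A3 share of the summed FPKM of both transporters was 10.1%, 9.76% and 10.2% in CB1 cells, against 18.0%, 18.5% and 18.3% in Vector cells.

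The hexokinases, which trap glucose in the cell by phosphorylation, did not pass the test. HK1, the ubiquitous isozyme, had 345, 363 and 352 CPM in CB1 cells and 337, 343 and 345 CPM in Vector cells, a log2 difference of 0.05 with a 95% interval of -0.09 to 0.19. HK2, the isozyme usually induced in tumours, had 95.25, 104.3 and 117.7 CPM in CB1 cells and 98.98, 101.4 and 103.0 CPM in Vector cells, with an interval of -0.12 to 0.25 and overlapping groups. Without CB1 replicate 1, HK2 passed at a log2 change of 0.14 (edgeR adjusted p = 0.0394). The upper limits of both intervals lie below the changes of every glycolysis gene that rose.

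Transcripts of the next steps of the upper part rose. GPI, which turns glucose phosphate into fructose phosphate (chromosome 19, 34359480 to 34402413, plus strand), had 498.1, 501.2 and 467.3 CPM in CB1 cells and 292.9, 299.4 and 299.0 CPM in Vector cells, a 1.65-fold rise (log2 0.72 ± 0.06 SE, edgeR adjusted p = 4.44e-06). PGM1, which links glycogen to glycolysis through glucose phosphate (chromosome 1, 63593276 to 63660245, plus strand), had 187, 170 and 159 CPM in CB1 cells and 112, 113 and 114 CPM in Vector cells, a 1.52-fold rise (adjusted p = 4.27e-05). In both genes every CB1 library lay above every Vector library.

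The isozymes of phosphofructokinase, the main control point of the pathway, moved unequally. PFKL, named as the liver type (chromosome 21, 44300051 to 44327376, plus strand), had 190, 181 and 164 CPM in CB1 cells, against 94.3, 92.9 and 96.0 CPM in Vector cells. Its 1.89-fold rise (log2 0.92 ± 0.07 SE, edgeR adjusted p = 2.29e-06) was the largest in glycolysis after ALDOA. PFKP, the platelet type and the most abundant of the 3 in these cells, rose 1.23-fold (435 ± 12.9 CPM in CB1 cells and 354 ± 4.64 CPM in Vector cells, SD, n = 3 each, edgeR adjusted p = 0.00179). PFKM, the muscle type, had 129, 148 and 139 CPM in CB1 cells and 139, 153 and 148 CPM in Vector cells and did not pass (adjusted p = 0.409). Within the summed FPKM of the family, PFKL made up 16.28%, 15.33% and 14.77% in CB1 cells, against 10.34%, 10.03% and 10.22% in Vector cells. PFKM made up 13.5%, 15.4% and 15.2% in CB1 cells and 18.5%, 20.1% and 19.2% in Vector cells, and PFKP stayed near 70% in every library, with means of 69.9% in CB1 cells and 70.5% in Vector cells.

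Both PFKFB genes in the set rose. They encode bifunctional enzymes that make and remove the fructose bisphosphate activating phosphofructokinase. PFKFB4 (chromosome 3, 48517684 to 48562015, minus strand) had 60.8, 67.4 and 60.9 CPM in CB1 cells and 39.1, 41.7 and 36.5 CPM in Vector cells, a 1.61-fold rise (log2 0.69 ± 0.08 SE, edgeR adjusted p = 3.48e-05). UCN2, a neuropeptide gene on the same strand that shares 4.73% of the PFKFB4 exon bases, had 1024 counts over the CB1 libraries and 545 over the Vector libraries. PFKFB3, the form of high kinase activity, rose 1.41-fold, with 274 ± 17.3 CPM in CB1 cells and 195 ± 5.24 CPM in Vector cells (SD, n = 3 each, edgeR adjusted p = 0.000119). PFKFB2, another form from the list of other isozymes, was 1.68-fold lower (22.5 ± 3.21 CPM in CB1 cells and 37.8 ± 2.03 CPM in Vector cells, SD, n = 3 each, adjusted p = 0.000106).

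The aldolase values are uncertain. ALDOA, which splits the sugar and is usually the main aldolase outside liver and brain (chromosome 16, 30064164 to 30070457, plus strand), had only 434, 523 and 386 counts in the CB1 libraries and 204, 207 and 217 counts in the Vector libraries. Per length, TPI1, the enzyme of the next step, stood 93.5 times above it over the 6 libraries. In the annotation of the tables, 53.5% of the ALDOA exon bases lie in exons of other genes, and 1266 of its 1350 coding bases (93.8%) lie in exons of AC093512.2, a gene on the same strand. AC093512.2 had 130, 190 and 134 counts in the CB1 libraries and 119, 114 and 143 counts in the Vector libraries, so neither gene had many counts. The 2.13-fold rise of ALDOA (log2 1.09 ± 0.11 SE, edgeR adjusted p = 1.16e-05) describes only the reads that were assigned to it. Without ALDOA, 13 of 19 glycolysis genes were higher and the median log2 change was 0.51. ALDOC, the brain type, had 27.7 ± 2.38 CPM in CB1 cells and 25.2 ± 1.85 CPM in Vector cells (SD, n = 3 each) and did not pass (adjusted p = 0.268).

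TPI1, which interconverts the triose phosphates and led the upper part in abundance (chromosome 12, 6867119 to 6870948, plus strand), had 1566, 1369 and 1315 CPM in CB1 cells, against 812, 899 and 871 CPM in Vector cells. The rise was 1.65-fold (log2 0.72 ± 0.08 SE, edgeR adjusted p = 1.57e-05), and the lowest CB1 library stood 1.46 times above the highest Vector library. Of its 4 pseudogene copies, 3 had counts, which came to 1.18% of the TPI1 counts in CB1 cells and 0.979% in Vector cells.

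In the lower part, from GAPDH on, 5 of 6 genes rose and none fell. GAPDH, the dehydrogenase that feeds electrons to NADH and the most abundant gene of the set (chromosome 12, 6533927 to 6538374, plus strand), had 4622, 4595 and 4066 CPM in CB1 cells, against 2485, 2581 and 2636 CPM in Vector cells. Its rise was 1.72-fold (log2 0.79 ± 0.07 SE, edgeR adjusted p = 3.22e-06), so that this common reference gene for expression assays was not level between the groups. The 62 GAPDH pseudogene copies together held 0.240% of the GAPDH counts in CB1 cells and 0.332% in Vector cells.

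Enolase changed in the form that dominates it. ENO1, the ubiquitous form (chromosome 1, 8861000 to 8879250, minus strand), had 4064, 3726 and 3374 CPM in CB1 cells, against 2272, 2418 and 2417 CPM in Vector cells, a 1.57-fold rise (log2 0.65 ± 0.07 SE, edgeR adjusted p = 2.20e-05). ENO2, the neuronal form and the least abundant gene of the lower part, had 255, 251 and 245 CPM in CB1 cells and 251, 228 and 232 CPM in Vector cells, with overlapping groups and a log2 interval of -0.07 to 0.23. The ENO2 share of the summed FPKM was 7.18%, 7.68% and 8.21% in CB1 cells and 11.97%, 10.41% and 10.56% in Vector cells.

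Transcripts of the remaining lower enzymes rose by less. PGK1, the first step that yields ATP, had 700 ± 22.3 CPM in CB1 cells and 483 ± 9.57 CPM in Vector cells (SD, n = 3 each), a 1.45-fold rise (edgeR adjusted p = 2.93e-05). PGAM1, the mutase that follows it, had 817 ± 58.5 CPM in CB1 cells and 574 ± 12.9 CPM in Vector cells (SD, n = 3 each), a 1.42-fold rise (adjusted p = 8.84e-05). PKM, pyruvate kinase, had 3351, 3321 and 3039 CPM in CB1 cells and 2393, 2422 and 2427 CPM in Vector cells, a 1.34-fold rise (adjusted p = 0.000139). The 2 splice forms of PKM share most of their exons and cannot be told apart in a count per gene.

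Summed over isozymes, the transcript level per step ran from 15.98 ± 0.973 FPKM for aldolase to 1491 ± 121 FPKM for GAPDH in CB1 cells, and from 11.81 ± 0.529 to 874 ± 28.7 FPKM in Vector cells (SD, n = 3 each, without a test). The ratio of the CB1 mean to the Vector mean was 1.71 for GAPDH, 1.63 for TPI1 and GPI, 1.51 for uptake, 1.499 for enolase and 1.43 for PGK1. It was 1.41 for PGAM1, 1.33 for PKM, 1.23 for phosphofructokinase and 1.03 for hexokinase. The aldolase ratio of 1.35 carries the uncertainty of ALDOA. Hexokinase was thus the step with the smallest difference, at 71.3, 75.5 and 74.7 FPKM in CB1 cells and 70.6, 72.4 and 72.9 FPKM in Vector cells.

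**Figure D2:**
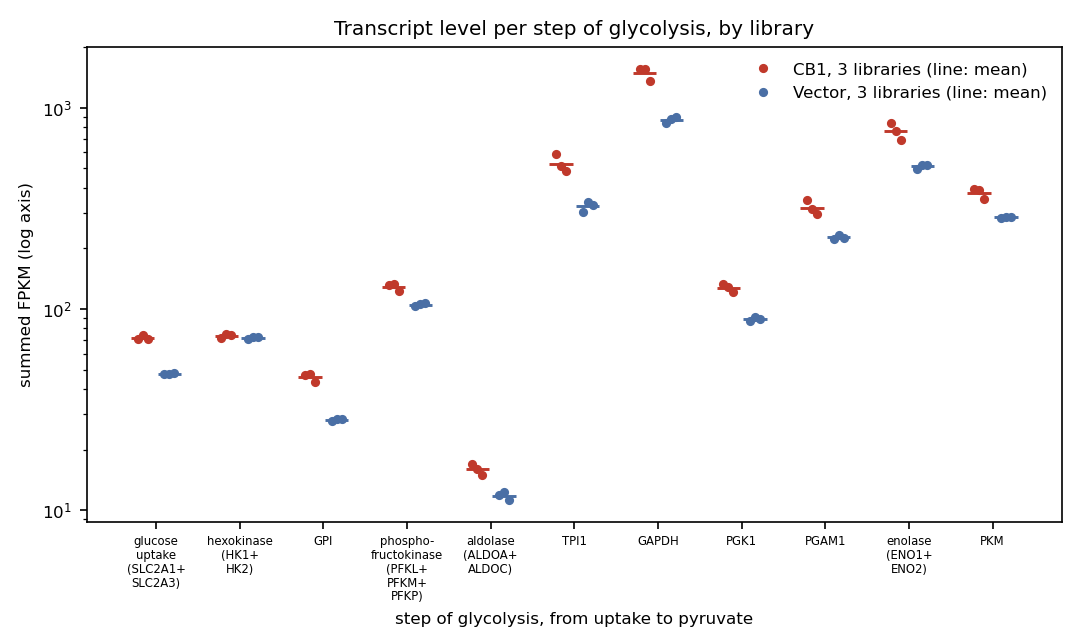
The horizontal axis lists the steps from glucose uptake to pyruvate kinase and the vertical axis gives FPKM summed over the named genes on a log axis, with 1 point per library and a line at the group mean (CB1 red and left, Vector blue and right). The CB1 points lie above the Vector points at every step but hexokinase, where the means differ by a factor of 1.03. The low aldolase values are those of ALDOA and ALDOC as counted.

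The 14 risen glycolysis genes were not equally high in the 3 CB1 libraries. CB1 replicate 1 was the highest CB1 library for 9 of the 14 and CB1 replicate 3 the lowest for 11 of the 14. The median log2 level of the 20 genes relative to the Vector mean was 0.60, 0.55 and 0.49 in the CB1 libraries, against -0.02, 0.01 and 0.02 in the Vector libraries. Every CB1 library lay above every Vector library for all 14. Without CB1 replicate 1, 15 glycolysis genes were higher and the median log2 change was 0.53.

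The change also went with abundance. All 6 glycolysis genes that averaged 100 FPKM or more were higher, with a median log2 change of 0.59. Of all 355 genes tested at that level, 73.0% passed the test, 61.4% higher and 11.5% lower, with a median of 0.34. Under 100 FPKM, 8 of 14 glycolysis genes and 5 of 13 hypoxia targets were higher, with medians of 0.40 and 0.17, beside 23.5% of all genes tested in that range, with a median of -0.01. Within that range the share of all genes that were higher grew with abundance, from 12.8% at 0.5 to 1 FPKM. It was 31.8% at 10 to 20 FPKM, 42.4% at 20 to 50 FPKM and 45.2% at 50 to 100 FPKM, with medians of 0.02, 0.14 and 0.16. The part of abundance in the result was not tested.

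Gene length was examined because it separated the libraries. The median log2 change of CB1 over Vector was 0.21 in the shortest of 4 equal length classes of the tested genes and -0.17 in the longest, and CB1 replicate 1 stood above the other CB1 libraries by 0.09 in the shortest class, with -0.17 in the longest. The glycolysis genes had a median length of 5394 bases and the hypoxia targets of 5547 bases, both within the class from 4104 to 6736 bases. The median log2 change was 0.52 for the glycolysis genes and 0.17 for the hypoxia targets, beside -0.05 for all genes of that class. That class holds the median lengths but not every gene of the groups. Among the glycolysis genes GAPDH (2981 bases) was shorter and PKM (8571 bases) longer, and among the hypoxia targets ADM (2718 bases) and VEGFA (14431 bases). The part of length in the result was not tested.

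**Figure D3:**
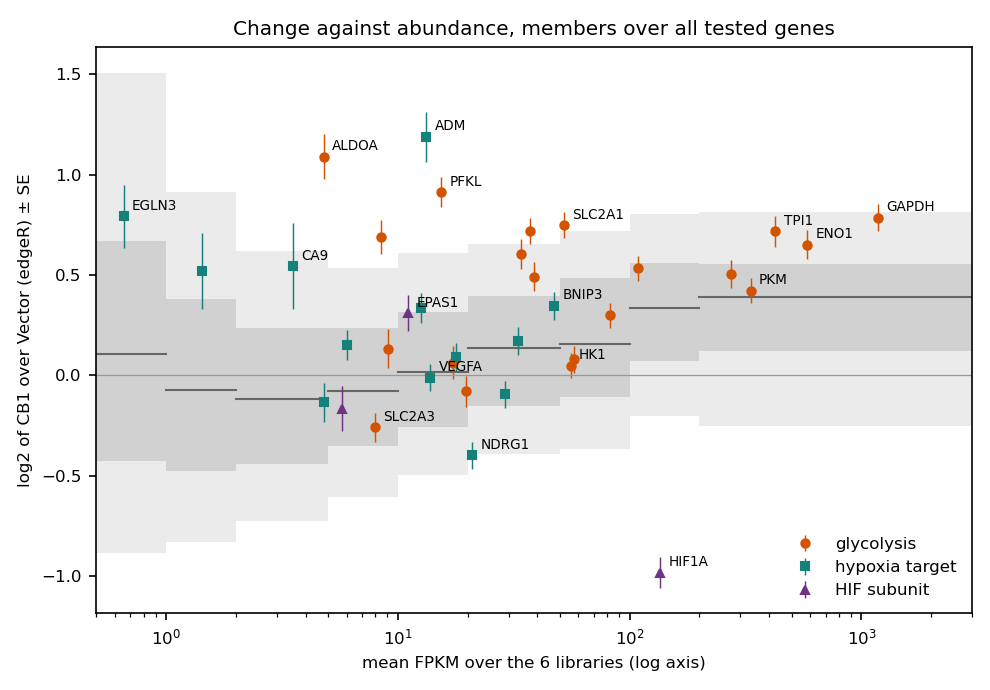
The horizontal axis gives the mean FPKM over the 6 libraries on a log axis and the vertical axis the log2 change of CB1 over Vector with its SE. Grey bands hold the middle 50% (dark) and 80% (light) of all tested genes in 9 classes of abundance, with the median as a line, and symbols show the glycolysis genes, the hypoxia targets and the HIF subunits. GAPDH, TPI1 and ENO1 lie above the dark band of abundant genes, whose median is 0.39 at 200 FPKM or more. All of them lie within the light band, whose upper edge is 0.81 there. PGAM1, PKM and PGK1 lie within the dark bands of their classes, at 0.51, 0.42 and 0.53. HIF1A lies far below both bands at -0.98.

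Among the hypoxia targets, ADM and EGLN3 changed most. ADM, the precursor of the vasodilator peptide adrenomedullin (chromosome 11, 10304680 to 10307397, plus strand), had 60.9, 44.4 and 44.0 CPM in CB1 cells, against 20.5, 22.7 and 22.3 CPM in Vector cells. It rose 2.28-fold (log2 1.19 ± 0.12 SE, edgeR adjusted p = 1.20e-05), and CB1 replicate 1 stood above the other CB1 libraries. Without CB1 replicate 1 the call held. EGLN3, a prolyl hydroxylase that marks HIF for destruction and is itself induced by it (chromosome 14, 33924231 to 34462774, minus strand), had 5.77, 6.40 and 6.05 CPM in CB1 cells, against 3.84, 3.48 and 3.20 CPM in Vector cells. It was the least abundant gene of the set, and it rose 1.73-fold (log2 0.79 ± 0.16 SE, adjusted p = 0.00112).

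Smaller rises were found for EGLN1, BNIP3 and ANKRD37. EGLN1, the main oxygen-sensing hydroxylase, had 100, 97.3 and 107 CPM in CB1 cells and 77.4, 81.1 and 82.9 CPM in Vector cells, a 1.26-fold rise (edgeR adjusted p = 0.00208). BNIP3, a mitophagy receptor and the most abundant hypoxia target of the set (chromosome 10, 131966455 to 131982013, minus strand), had 301, 273 and 263 CPM in CB1 cells and 216, 218 and 223 CPM in Vector cells, a 1.27-fold rise (adjusted p = 0.00144). ANKRD37, an ankyrin repeat gene known as a direct HIF target, had 4.71, 4.49 and 3.67 CPM in CB1 cells and 2.52, 3.03 and 3.42 CPM in Vector cells. Its 1.43-fold rise just passed (edgeR adjusted p = 0.0379), with values from 0.0235 to 0.147 over the alternatives, and 35.2% of its exon bases lie in UFSP2 on the opposite strand.

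NDRG1, a stress gene that is commonly among the strongest hypoxia markers, went the other way. It had 172, 185 and 171 CPM in CB1 cells and 224, 235 and 238 CPM in Vector cells, without overlap. The fall was 1.32-fold (log2 -0.40 ± 0.07 SE, edgeR adjusted p = 0.000414). It was the only hypoxia target of the 13 that fell.

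The other 7 hypoxia targets did not pass. VEGFA, the main angiogenic factor, had 187, 198 and 205 CPM in CB1 cells and 199, 199 and 196 CPM in Vector cells, with a log2 interval of -0.16 to 0.13. CA9, the membrane carbonic anhydrase used as a clinical hypoxia marker, had 8.60, 7.17 and 5.09 CPM in CB1 cells and 4.47, 3.82 and 5.99 CPM in Vector cells. Its groups overlapped and its edgeR adjusted p was 0.0511 (0.0121 to 0.194 over the alternatives), and 38.5% of its exon bases lie in ARHGEF39 on the opposite strand. P4HA1 and P4HA2, the catalytic subunits of collagen prolyl hydroxylase, had log2 differences of 0.17 and 0.15 (adjusted p = 0.0554 and 0.114), with CB1 libraries all above Vector libraries. P4HA1 passed without CB1 replicate 1 (0.0247) and without CB1 replicate 2 (0.0457), and P4HA2 passed without CB1 replicate 1 (0.0279). LOX, which crosslinks collagen, KDM3A, a histone demethylase, and BNIP3L, the relative of BNIP3, had log2 differences of 0.09, -0.13 and -0.09 (adjusted p = 0.337, 0.277 and 0.277).

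The HIF subunits moved apart. HIF1A (chromosome 14, 61695513 to 61748259, plus strand) had 430, 448 and 513 CPM in CB1 cells, against 910, 912 and 923 CPM in Vector cells. The highest CB1 library lay at 0.563 of the lowest Vector library, and the log2 change was -0.98 ± 0.08 (SE, edgeR adjusted p = 1.63e-06), a 1.97-fold fall. EPAS1, the alpha subunit also called HIF2A, had 78.2, 97.8 and 91.1 CPM in CB1 cells and 69.2, 74.6 and 71.5 CPM in Vector cells, a 1.24-fold rise (log2 0.31 ± 0.09 SE, adjusted p = 0.0109). EPAS1 did not pass without CB1 replicate 2 (adjusted p = 0.0567) or without Vector replicate 1 (0.0573). ARNT, the shared beta subunit and the least abundant of the 3 per length, had 29.1, 38.9 and 36.6 CPM in CB1 cells and 35.8, 43.1 and 38.3 CPM in Vector cells, with overlapping groups (adjusted p = 0.244). Per length, EPAS1 made up 11.4%, 13.3% and 11.1% of the summed FPKM of both alpha subunits in CB1 cells, against 5.09%, 5.46% and 5.18% in Vector cells. HIF1A thus remained the more abundant alpha transcript in every library, with 90.2 ± 7.50 FPKM beside 12.2 ± 1.34 FPKM for EPAS1 in CB1 cells, and 180 ± 1.79 FPKM beside 9.97 ± 0.409 FPKM in Vector cells (SD, n = 3 each).

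Shares within families were compared for 10 families. In 7 of them the CB1 and Vector libraries did not overlap, each with an exact permutation p of 0.10 (two-sided), the smallest that 3 against 3 libraries can give, and 0.143 after Benjamini-Hochberg adjustment over the families. The SLC2A3, ENO2 and ALDOC shares were lower in CB1 cells, and the PFKFB4, EGLN3, BNIP3 and EPAS1 shares were higher. PFKFB4 averaged 18.8% ± 0.762 in CB1 cells and 16.7% ± 0.831 in Vector cells, EGLN3 5.58% ± 0.449 in CB1 cells and 4.13% ± 0.504 in Vector cells, and BNIP3 65.4% ± 1.68 in CB1 cells and 58.2% ± 0.419 in Vector cells (SD, n = 3 each). The ALDOC share rests on ALDOA and is not interpreted. HK2 averaged 23.7% ± 1.86 in CB1 cells and 23.5% ± 0.161 in Vector cells, and P4HA2 15.3% ± 0.894 in CB1 cells and 15.5% ± 0.700 in Vector cells (SD, n = 3 each, exact permutation p = 1.0 and 0.80). PFKP also overlapped between the groups (exact permutation p = 0.30).

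**Figure D4:**
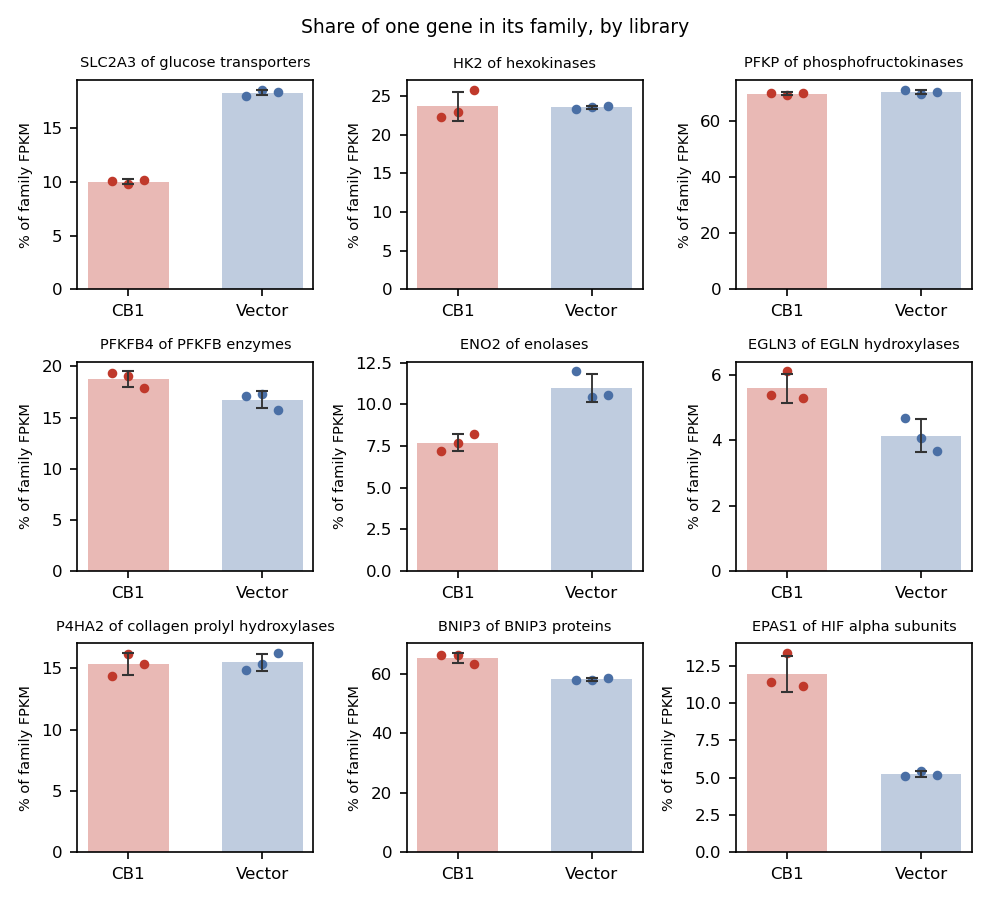
Each panel gives, on the vertical axis, the percentage that 1 gene held of the summed FPKM of its family, with bars at the mean, error bars of 1 SD and points for the 3 CB1 (left, red) and 3 Vector (right, blue) libraries. The axes start at 0 and differ between panels, and the aldolases are left out. SLC2A3 and ENO2 held a smaller share in CB1 cells, EPAS1 a larger one (11.95% against 5.24%), and HK2, PFKP and P4HA2 overlapped.

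The genes that surround the set were followed in lists of the same kind. Of 15 genes of pyruvate and lactate handling, 7 were higher and 3 lower, beside 24.4% and 25.4% of all genes tested. SLC16A1, the lactate transporter MCT1, rose 8.92-fold (17.5 ± 1.74 CPM in CB1 cells and 1.95 ± 0.0659 CPM in Vector cells), SLC16A3, the exporter MCT4, rose 1.959-fold (727 ± 47.4 CPM in CB1 cells and 371 ± 12.7 CPM in Vector cells), and LDHA, the main lactate dehydrogenase subunit, rose 1.51-fold (2006 ± 130 CPM in CB1 cells and 1327 ± 53.0 CPM in Vector cells, SD, n = 3 each). PDP1, a phosphatase that activates pyruvate dehydrogenase, was 1.90-fold lower (edgeR adjusted p = 1.57e-05).

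Of 23 further hypoxia targets, 12 were higher and 4 lower, beside 24.4% and 25.4% of all genes tested, with a median log2 change of 0.23. ANGPTL4, a secreted inhibitor of lipoprotein lipase that PPAR factors also induce, had 349, 308 and 292 CPM in CB1 cells, against 20.2, 20.8 and 21.9 CPM in Vector cells. HILPDA, a lipid droplet protein, rose 1.78-fold and BHLHE40, a transcriptional repressor, 1.73-fold (edgeR adjusted p = 3.07e-05 and 3.60e-06). The 4 lower ones, named after their values were seen, were CA12, PLOD2, MXI1 and STC1, which were 1.497-fold, 1.34-fold, 1.21-fold and 1.22-fold lower. Hypoxia targets have inducers besides HIF, and HIF activity was not measured.

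Of 12 tested genes that control HIF, 4 were higher and 2 lower, shares near those of all genes tested (24.4% and 25.4%). VHL, which targets HIF for destruction, had 182, 150 and 156 CPM in CB1 cells and 91.4, 85.9 and 86.4 CPM in Vector cells, a 1.85-fold rise (edgeR adjusted p = 6.20e-06). ARNT2, a relative of ARNT, rose 2.37-fold, and ELOB, a partner of VHL, rose 1.47-fold (adjusted p = 2.06e-06 and 0.00106). CUL2, the scaffold of the VHL ligase, was 1.404-fold lower (adjusted p = 0.000115).

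None of the other tested isozymes and sugar transporters was higher. Of 24 on that list, 10 were expressed enough to be tested, with means of 0.519 to 8.96 FPKM. The 4 lower ones were SLC2A12, PFKFB2, SLC2A13 and ENO3, the muscle enolase. Over all genes tested, 24.4% were higher and 25.4% lower. In the classes of abundance from 0.5 to 10 FPKM, 12.8% to 23.3% were higher and 11.6% to 33.8% lower. At an unadjusted p under 0.05 (edgeR) 0 of the 10 were higher and 6 lower, and by DESeq2, limma-voom and limma on log2(FPKM + 1) 0 were higher and 3, 4 and 5 lower. Of 11 tested genes of glycogen and gluconeogenesis, 4 were higher and 2 lower, also beside 24.4% and 25.4% of all genes tested. GYS1, the glycogen synthase, rose 1.57-fold (edgeR adjusted p = 3.39e-05), while G6PC3 rose 1.42-fold and PC was 1.32-fold lower. Of 6 genes of glucose sensing and MYC, TXNIP, a glucose-induced inhibitor of uptake, was 1.65-fold lower (edgeR adjusted p = 1.14e-05). MLXIPL was 2.23-fold lower (adjusted p = 5.49e-06), whereas MLXIP and ARRDC4 rose 1.45-fold and 2.27-fold.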

How the data were processed

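The authors aligned reads with HISAT2 2.0.5 and counted them with featureCounts 1.5.0-p3, per the labels' processing notes, and the study's methods describe uniquely mapped exon reads. The deposited counts per gene are whole and not normalized. The deposited FPKM values are counts per length and library total, scaled by the authors. The strand setting and build are not given in the sources used here, but coordinates of 58735 of 58735 genes equal GENCODE 29 on GRCh38.

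Groups come from the titles. The 15289 genes averaging 0.5 FPKM or more were tested with edgeR 4.0.16 (R 4.3.3, quasi-likelihood, TMM scaling, Benjamini-Hochberg, threshold 0.05). CPM uses TMM-scaled totals, and FPKM served for levels between genes. In simulated counts for CB1 against Vector over 15289 genes, 99 of 100 genes raised 2-fold and 91 of 100 lowered 2-fold were recovered, with 8 false calls among 198. The simulation changed 200 genes, all by 2-fold, and used the same dispersion for every gene and group. In the data 49.8% of genes were called and most changes in the set were smaller, so these rates do not carry over to the calls. Members and lists were chosen with earlier results of these data known. Members past the threshold with over 1.5-fold, and those leading or closing their role by abundance, were given by library, and up to 4 genes per further list were named by smallest p. Alternatives used limma 3.58.1, DESeq2 1.42.0, other minimums, scalings, thresholds, a replicate block and each library left out. Intervals of log2 changes are 95% and unadjusted. Some genes of the further lists are not reported here. Reads were not analysed here.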

Additional observations from a re-analysis of the deposited data

How the results depend on the processing

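Of 643 alternative values for single genes of the set, 585 kept their direction and their side of the threshold, and 9 genes did so under every alternative run. With a threshold of 2-fold, the fold the study used, 1 glycolysis gene and 1 hypoxia target were higher and 0 were lower. They were ALDOA, whose values are uncertain, and ADM. At that threshold 0 HIF subunits and 926 genes in all passed. At an adjusted p under 0.01, 0 glycolysis genes were lower and 1 HIF subunit was called. With a minimum of 5 FPKM, 3 hypoxia targets were higher and 4708 genes were called, and the medians were 0.46 for glycolysis and 0.11 for the hypoxia targets, over 19 and 9 tested genes. With median-of-ratios factors and over protein-coding genes alone 7 of 13 hypoxia targets were higher, and with DESeq2 6, against 14 glycolysis genes each time. With library totals, the medians were 0.44 and 0.0944, HK1 and HK2 turned to -0.0289 and -0.0119, and 39.6% of all calls were higher instead of 48.98%. Without a minimum the hypoxia target median was 0.13, while the median of all genes lay at 0.17. Leaving out each library gave 0 to 1 glycolysis genes lower, 1 to 2 HIF subunits called, and hypoxia target medians of 0.17 to 0.21. Leaving out libraries moved HK2 between -0.010 (without CB1 replicate 3) and 0.1387 and VEGFA between -0.0312 and 0.0303 (without CB1 replicate 1). VEGFA lay at 0.0020 with median-of-ratios factors, 0.0021 with DESeq2 and 0.0065 over protein-coding genes. From counts not divided by length, the differences in share were -9.92 percentage points for SLC2A3, -1.59 for PFKP and 8.86 for EPAS1. Shares without 1 library differed by -0.887 to 0.872 percentage points for HK2 and -0.604 to 0.289 for P4HA2. The cause of these shifts was not tested. Replicate numbers are shared by the groups, but nothing states that the libraries pair. Deviations of same-numbered libraries correlated at -0.12, -0.06 and -0.03, and no library correlated best with its own number. With 3 libraries per group these values cannot show whether libraries were prepared in pairs, and the main fit left them unpaired. With a replicate block, 14 glycolysis genes were higher and 1 lower, 5 hypoxia targets were higher, 7142 genes were called in all, CA9 passed (0.0441) and ANKRD37 did not (0.0544). Counts of a few CPM limit CA9, ANKRD37 and EGLN3.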
